A study of Mus musculus with 36 samples.

Results

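The 10 genes described here, *Nfe2l2*, *Keap1*, *Nqo1*, *Hmox1*, *Gclc*, *Gclm*, *Txnrd1*, *Srxn1*, *Gsta4* and *Slc7a11*, form a list of NRF2, its partner KEAP1 and genes that NRF2 is known to switch on. They were taken by symbol from a table of 55484 gene symbols, with the most abundant entry used where a symbol was repeated, and all 10 were present. Their levels were compared in bulk RNA-seq of mouse tibiae from 36 mice that were 6 months old, with 6 males and 6 females in each of 3 groups. The first group was 12 untreated wild-type mice (WT). The other groups were *LMNA* G/G mice, which are homozygous for a human *LMNA* transgene with the mutation of Hutchinson-Gilford progeria, a premature aging disease. Of these, 12 were injected retro-orbitally with saline at postnatal day 14 and 12 with ABE at the same age. ABE stands for adenine base editor, a fusion enzyme that changes the mutant base without cutting both DNA strands. It was delivered by a pair of adeno-associated virus vectors and does not reach every cell or every transgene copy. The study states that the epiphyses and the marrow were removed before RNA extraction, which left mostly cortical bone. The study calls the groups littermates, and the labels name no litters and number the WT mice in a series of their own. WT mice were untreated rather than saline-injected, so genotype and injection cannot be told apart in a comparison with WT, and ABE against saline is the comparison within 1 genotype.

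NRF2, the protein of *Nfe2l2*, is a transcription factor that is normally held in the cytoplasm by KEAP1 and handed to a ubiquitin ligase for degradation. Oxidants and electrophiles modify KEAP1, NRF2 then accumulates in the nucleus, pairs with a small MAF protein and binds antioxidant response elements near its target genes. The targets make glutathione, recycle thioredoxin and peroxiredoxin and detoxify quinones, heme and aldehydes. Because NRF2 is controlled mainly through protein stability, the level of its RNA is not a measure of its activity. In bone, NRF2 is studied for its part in osteoclast formation, and reduced NRF2 activity has been studied in progeria cells.

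The promoter sequences of the members are shown first because NRF2 binds antioxidant response elements near its target genes. Windows from 250 bases before to 50 bases after a gene start were taken from RefSeq on GRCm38.p6, and 7 of the 10 members had at least 1 window (9 windows in all, of which *Txnrd1* had 3). *Hmox1*, *Gclc* and *Gsta4* had none. The letters TGACNNNGC, the core of the element, were searched on both strands, with N for any base, and were found in 4 windows, 1 each of *Nfe2l2*, *Srxn1*, *Gclm* and *Txnrd1*. Each match is printed in the direction of the gene with 10 bases on either side and the core in capitals. In the last 3 the core lies on the opposite strand, so the printed capitals are its reverse complement.
Nfe2l2, chr2:75704885-75704913, minus strand: tcagcccaccTGACTCCGCcatgccccgg
Srxn1, chr2:152105542-152105570, plus strand: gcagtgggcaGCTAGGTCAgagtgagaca
Gclm, chr3:122245413-122245441, plus strand: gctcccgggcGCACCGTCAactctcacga
Txnrd1, chr10:82859104-82859132, plus strand: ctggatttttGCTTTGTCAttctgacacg
The core began 240, 134 and 92 bases before the start used for the window in *Nfe2l2*, *Gclm* and *Txnrd1*, and 28 bases after it in *Srxn1*. For *Txnrd1* that start is an alternative start within the gene. The window of *Txnrd1* at the GENCODE start of the gene, chr10:82833951, held no match. The same letters were in 12.39% of all 32851 windows and in 1 or more windows of 13.99% of 27025 genes. They were in 17.15% of the 9137 genes tested below that had a window. Of the wider antioxidant list described below, 17 of 82 genes (20.73%) held them. A match is a description of the letters in the window, and the windows of *Keap1*, *Nqo1* and *Slc7a11* held none. The bases from the start on were found in a GENCODE transcript of the gene for every window except that of *Nfe2l2*. The distance given for *Nfe2l2* thus holds for the RefSeq start only. The 4 members with a match did not share a direction in the comparisons below, where *Gclm* fell while *Nfe2l2*, *Srxn1* and *Txnrd1* rose in ABE against WT.

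Levels are given as scaled TPM, which is TPM after each library was divided by its median ratio to all libraries. TPM is corrected for gene length, so levels are per length and can be set beside each other. The libraries held 48064068 to 116206662 reads on genes. The ABE library of replicate 1, a female, stood apart with a scaling factor of 0.2173, against a group median of 0.8719. The labelled tissue was checked on marker genes. The osteocyte marker *Sost* and the other 7 osteocyte markers were detected in every group, but their summed level was 11.3 to 51.8 scaled TPM in WT, against 176 to 502 in saline and 180 to 356 in ABE. RNA of other cell types was also present and differed between the groups. The summed chondrocyte markers were at 90.7 to 238 scaled TPM in WT, 9.62 to 39.1 in saline and 21.9 to 113 in ABE. The most abundant of them, *Prg4*, had medians of 55.9, 0.361 and 1.39. The marker lists that members varied with most are given beside them or in the plot of correlations. In bulk RNA, fewer cells of a type and less RNA per cell cannot be told apart.

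The members covered a wide range of levels. In WT tibiae *Hmox1* was the most abundant at a mean of 16.7 ± 6.33 scaled TPM (SD, n = 12), followed by *Gclc* at 7.04 ± 1.23, *Gclm* at 4.86 ± 1.12, *Nfe2l2* at 4.27 ± 0.403 and *Keap1* at 3.64 ± 0.160. Below these lay *Txnrd1* at 2.98 ± 0.241, *Srxn1* at 2.10 ± 0.161, *Nqo1* at 1.41 ± 0.146 and *Gsta4* at 0.825 ± 0.276 scaled TPM. *Slc7a11* was last at 0.0936 ± 0.0331. The ranges of neighbors in this order overlapped from *Hmox1* down to *Keap1* and between *Nqo1* and *Gsta4*, and were separate at each of the other steps. In ABE tibiae *Hmox1* was still first at 8.84 ± 5.09, but *Nfe2l2* and *Keap1* came next and *Gclc* and *Gclm* ranked 4 and 6, and every pair of neighbors except *Gsta4* and *Slc7a11* overlapped.

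**Figure D1:**
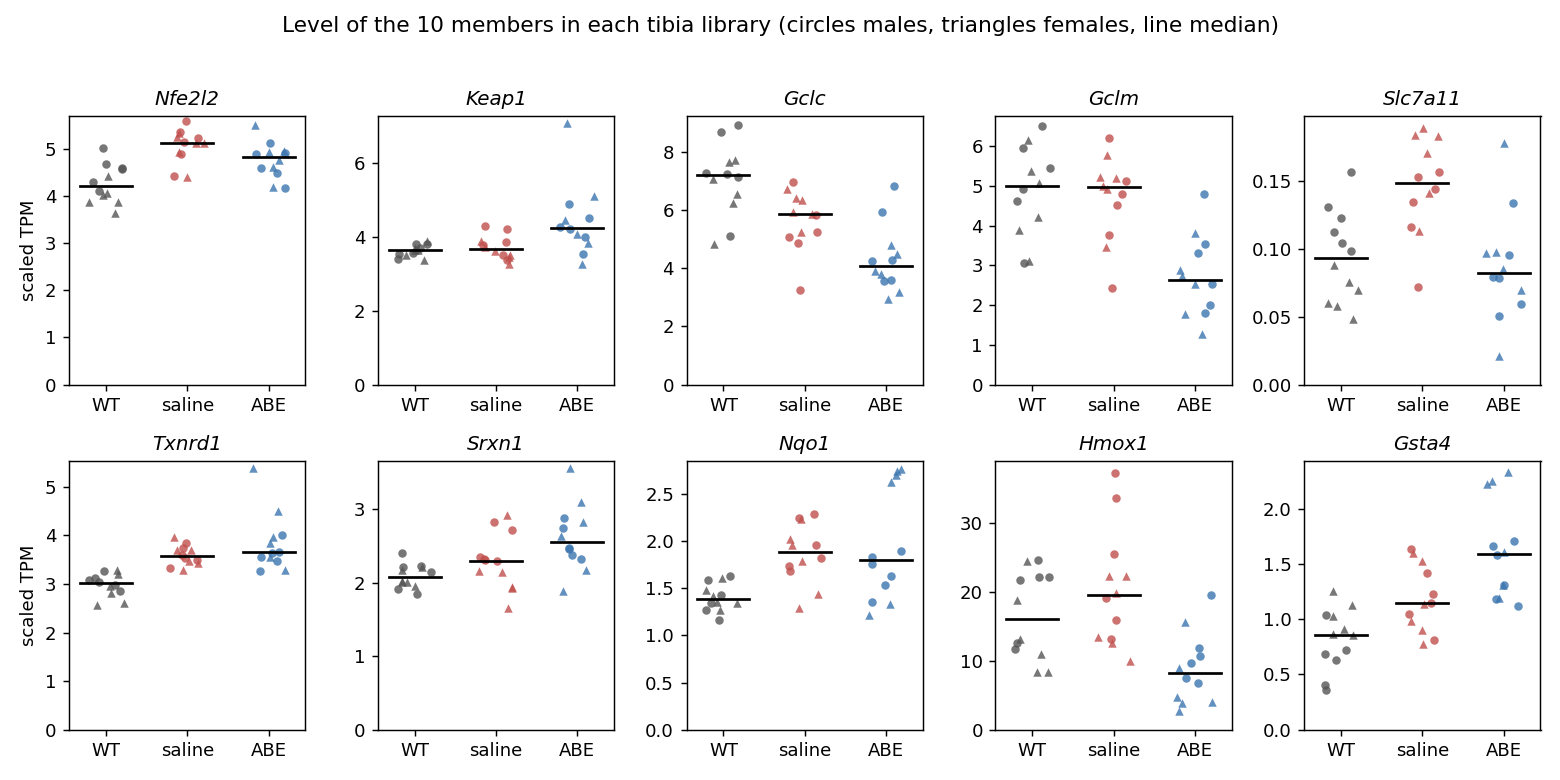
Level of each member in scaled TPM (vertical axes, starting at 0) in the 12 libraries of each group (horizontal axes), with circles for males, triangles for females and a line at the median. *Hmox1*, *Gclc* and *Gclm* are lower in ABE than in WT, with medians of 8.25 against 16.1, 4.08 against 7.19 and 2.64 against 4.99, while *Gsta4* is higher with medians of 1.59 against 0.861.

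Each comparison was tested with limma across 15931 genes, and a gene was called at a Benjamini-Hochberg adjusted p under 0.05. Here 9 members were tested, and *Slc7a11* was below the filter of a mean of 0.5 scaled TPM. In saline against WT, 4 members rose (*Nfe2l2*, *Nqo1*, *Txnrd1* and *Gsta4*) and 1 fell (*Gclc*), where 27.7% of all genes tested rose and 24.6% fell. In ABE against WT, 6 rose (*Nfe2l2*, *Keap1*, *Nqo1*, *Txnrd1*, *Srxn1* and *Gsta4*) and 3 fell (*Hmox1*, *Gclc* and *Gclm*), against 35.0% and 35.2% of all genes. In ABE against saline, 2 rose (*Keap1* and *Gsta4*) and 3 fell (*Hmox1*, *Gclc* and *Gclm*), against 23.2% and 25.1%. These comparisons share libraries with each other. The median log2 fold change of the tested members was 0.23, 0.24 and 0.02 in these 3 comparisons, and that of all genes was 0.018, -0.019 and -0.016. With so large a share of all genes called, the counts describe the members and set them apart from other genes in no comparison.

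**Figure D2:**
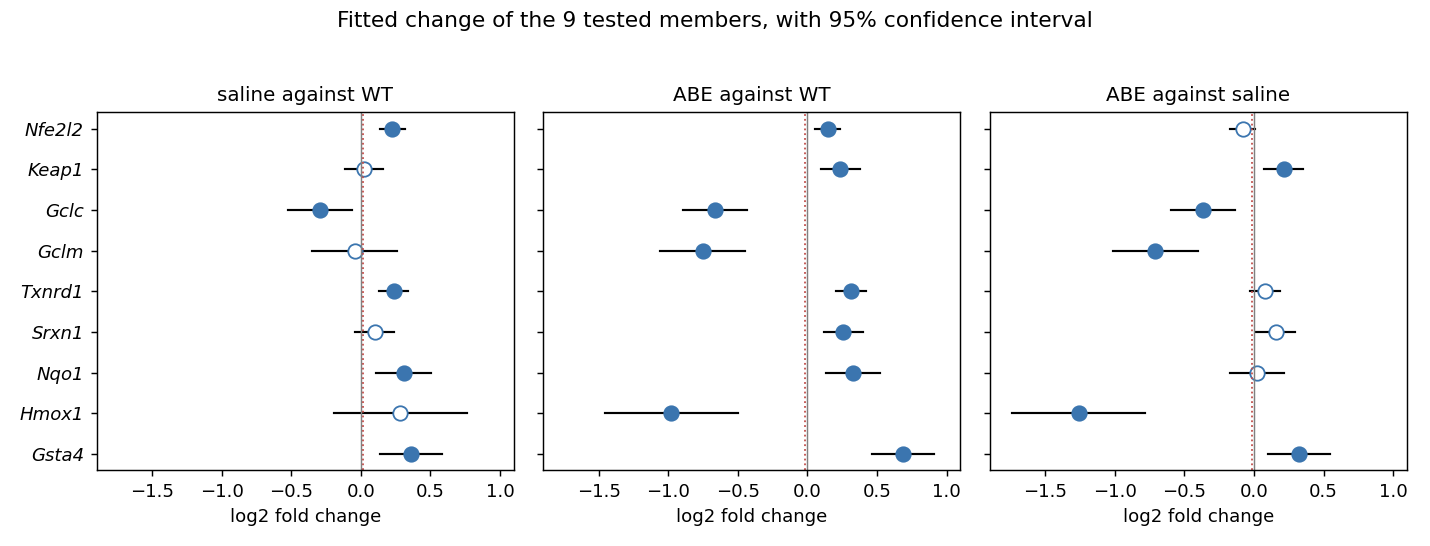
Fitted log2 fold change (points, horizontal axes) of the 9 tested members with 95% confidence intervals (lines) in the 3 comparisons. Filled points were called, open points were not, and the dotted line is the median of all genes. *Hmox1* lies farthest below 0 in ABE against WT (-0.98) and in ABE against saline (-1.26).

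The regulators *Nfe2l2* and *Keap1* changed by at most 0.24 on the log2 scale in the 3 comparisons. *Nfe2l2* (ENSMUSG00000015839.6, chr2:75675513-75704641, minus strand) had a lowest, median and highest level of 3.64, 4.21 and 5.03 scaled TPM in WT, 4.41, 5.14 and 5.61 in saline, and 4.19, 4.84 and 5.53 in ABE. All 12 saline libraries were above the WT median and 8 were above every WT library, although the ranges overlapped. *Nfe2l2* rose in saline against WT by 0.23 ± 0.045 on the log2 scale (SE, adjusted p = 8.79e-05) and in ABE against WT by 0.15 ± 0.045 (adjusted p = 0.00471). The latter did not pass with quantile normalization, where it was 0.08. The difference of ABE from saline was -0.08 with a 95% confidence interval of -0.17 to 0.01 (adjusted p = 0.132), and it passed the test without the ABE library of replicate 2 (-0.10, adjusted p = 0.0446). The rise in ABE against WT was 0.04 ± 0.060 in males and 0.25 ± 0.062 in females. A short annotated gene, *Gm24996*, lies on the same strand within *Nfe2l2*, so reads on it cannot be fully assigned to either. Its means were 177.6, 129.3 and 123.9 scaled TPM in WT, saline and ABE, in a unit that weighs each read of a short gene more. *Nfe2l2* varied with the neutrophil (r = 0.578) and erythroid (r = 0.567) marker lists and against the chondrocyte list (r = -0.572). Of 6 tested chondrocyte markers, 6 fell in saline and 6 in ABE against WT. Of 8 neutrophil markers, 2 rose in saline and 1 fell in ABE against WT. Of 7 tested erythroid markers, 1 fell in saline and 5 in ABE against WT. The part of these lists in the changes of *Nfe2l2* was not tested beyond a fit with the erythroid score.

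*Keap1* (ENSMUSG00000003308.15, chr9:21229730-21239361, minus strand) encodes the sensor that holds NRF2. Its level ran from 3.39 through a median of 3.65 to 3.88 scaled TPM in WT, from 3.27 through 3.68 to 4.29 in saline, and from 3.27 through 4.25 to 7.09 in ABE. WT and saline were close, and 10 of 12 ABE libraries lay above the saline median. *Keap1* rose in ABE against saline by 0.21 ± 0.068 (adjusted p = 0.0111) and in ABE against WT by 0.24 ± 0.068 (adjusted p = 0.00265), while the difference of saline from WT was 0.02 (95% confidence interval -0.12 to 0.16). Without the ABE library of replicate 1, which held the highest level, the rises were 0.15 and 0.18 and both remained past the test. Among 8430 genes with a mean of at least 2 scaled TPM, those most like *Keap1* over the 36 libraries, after the mean of each group and sex was removed, were *Lonp1* (r = 0.964), *Klhdc3* (r = 0.956) and *Dnajb12* (r = 0.953). *Lonp1* encodes a protease of mitochondria. *Keap1* varied against the neutrophil list (r = -0.695), of which 6 of 8 genes fell in ABE against saline, and the part of that list in the rise was not tested.

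Glutathione is made from glutamate, cysteine and glycine, and its first and rate-limiting step is carried out by glutamate-cysteine ligase. The ligase has a catalytic subunit (*Gclc*) and a modifier subunit (*Gclm*), and both were lower in ABE. *Gclc* (ENSMUSG00000032350.9, chr9:77754535-77794485, plus strand) had a lowest, median and highest level of 4.84, 7.19 and 8.93 scaled TPM in WT, 3.26, 5.85 and 6.95 in saline, and 2.93, 4.08 and 6.83 in ABE. The groups thus stepped down from WT to saline to ABE, and all 12 saline and all 12 ABE libraries were below the WT median. *Gclc* fell in saline against WT by 0.30 ± 0.11 on the log2 scale (adjusted p = 0.0276), in ABE against saline by 0.37 ± 0.11 (adjusted p = 0.00849) and in ABE against WT by 0.67 ± 0.11 (adjusted p = 4.46e-06). The fall in ABE against saline was -0.13 ± 0.18 in males, which did not pass, and -0.61 ± 0.12 in females. The fall in saline against WT lay near the threshold, at -0.34 to -0.23 without any 1 library. It did not pass without the WT library of replicate 2 (-0.27, adjusted p = 0.0501), the WT library of replicate 11 (-0.27, adjusted p = 0.0524) or the saline library of replicate 11 (-0.23, adjusted p = 0.0649).

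*Gclm* (ENSMUSG00000028124.15, chr3:122245557-122270732, plus strand) did not follow *Gclc* in saline. Its level was 3.06, 4.99 and 6.49 scaled TPM (lowest, median and highest) in WT, 2.42, 4.96 and 6.21 in saline, and 1.28, 2.64 and 4.80 in ABE. Every ABE library was below the median of saline and below that of WT. *Gclm* fell in ABE against saline by 0.71 ± 0.15 (adjusted p = 0.000902) and in ABE against WT by 0.75 ± 0.15 (adjusted p = 4.63e-05), and saline differed from WT by -0.04 with a 95% confidence interval of -0.35 to 0.26. In ABE against saline the change was -0.52 ± 0.23 in males, which did not pass, and -0.90 ± 0.19 in females. *Gm6061*, a gene model on the same strand within *Gclm*, was measured at means of 2.49, 2.33 and 1.48 scaled TPM in WT, saline and ABE, and reads of the pair may be shared. After group and sex means were removed, *Gclc* and *Gclm* varied together over the 36 libraries (r = 0.923), and the pair is described, not tested, since all genes of a library share its depth and cell makeup.

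Both ligase subunits varied with the RNA of erythroid cells, the precursors of red blood cells. The genes most like *Gclm* were *Fam210b* (r = 0.985), *Slc25a37* (r = 0.984), the mitochondrial iron importer of erythroid cells, and *Smap1* (r = 0.983), and those most like *Gclc* were *Cdyl* (r = 0.971), *Fam234b* (r = 0.960) and *Fbxo7* (r = 0.959). The score of the erythroid marker list correlated with *Gclm* at r = 0.944 and with *Gclc* at r = 0.809, and that of the neutrophil list with *Gclm* at 0.740. The list itself was lower in ABE, where 5 of its 7 tested genes fell against saline and 5 of 7 fell against WT. Its summed level ran from 90.0 to 319 scaled TPM in saline and from 21.8 to 231 in ABE, and its most abundant gene *Slc4a1*, the anion exchanger of red cells, had medians of 122, 119 and 50.01 in WT, saline and ABE. With the erythroid score as a covariate, the change in ABE against saline was -0.21 for *Gclm* and -0.06 for *Gclc*, and neither passed, but only 172 of all 15931 genes passed in that fit. In ABE against WT both fell in that fit as well, by 0.31 and 0.39. The part of erythroid RNA in the falls was not tested beyond these fits.

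*Slc7a11* (ENSMUSG00000027737.10, chr3:49892526-50443614, minus strand) encodes the cystine importer that feeds glutathione synthesis, and its RNA was the scarcest of the list. Its lowest, median and highest level was 0.0484, 0.0932 and 0.156 scaled TPM in WT, 0.0717, 0.149 and 0.189 in saline, and 0.0210, 0.0822 and 0.178 in ABE. Because its annotated exons are long (13922 bases), these levels correspond to 53 to 1122 reads in a library, so it could be tested on reads. With limma-voom on recovered reads over 17847 genes, an analysis added after the data were seen, *Slc7a11* rose in saline against WT by 0.66 ± 0.22 (adjusted p = 0.0105) and fell in ABE against saline by 0.83 ± 0.22 (adjusted p = 0.00329), and ABE differed from WT by -0.18 (95% confidence interval -0.65 to 0.29). Its mean was 0.0664 in WT and 0.163 in saline females, and 0.121 and 0.129 in males, and the difference of the rise in males from that in females was -1.23 ± 0.38 in limma-voom (adjusted p = 0.0531). Without a filter on scaled TPM, limma gave the same directions with adjusted p = 0.00641 and 0.0044. It varied with the neutrophil marker list (r = 0.843), of which 2 of 8 genes rose in saline against WT and 6 of 8 fell in ABE against saline, with a median of *S100a9* of 544, 1084 and 646 scaled TPM in WT, saline and ABE. The part of neutrophil RNA in these differences was not tested. Several gene models without a name overlap *Slc7a11*, and the highest group mean among them was 0.0569 scaled TPM.

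The members of the thioredoxin system, *Txnrd1* and *Srxn1*, rose in ABE against WT, and neither passed in ABE against saline. *Txnrd1* (ENSMUSG00000020250.10, chr10:82833951-82897712, plus strand), the cytosolic thioredoxin reductase, had a lowest, median and highest level of 2.56, 3.01 and 3.30 scaled TPM in WT, 3.29, 3.57 and 3.97 in saline, and 3.26, 3.65 and 5.39 in ABE. The WT range barely met the others, with 11 of 12 saline and 10 of 12 ABE libraries above every WT library. *Txnrd1* rose in saline against WT by 0.24 ± 0.053 (adjusted p = 0.000415) and in ABE against WT by 0.31 ± 0.053 (adjusted p = 4.47e-06). ABE differed from saline by 0.08, with a 95% confidence interval of -0.03 to 0.19. *Eid3* lies within *Txnrd1* on the same strand at a mean near 1 scaled TPM (1.12, 0.860 and 0.913 in WT, saline and ABE).

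*Srxn1* (ENSMUSG00000032802.8, chr2:152105516-152111376, plus strand) encodes sulfiredoxin, which repairs overoxidized peroxiredoxins. Its level was 1.85, 2.08 and 2.41 scaled TPM (lowest, median and highest) in WT, 1.65, 2.30 and 2.93 in saline, and 1.89, 2.55 and 3.56 in ABE. It rose in ABE against WT by 0.26 ± 0.069 (adjusted p = 0.00143), with 11 of 12 ABE libraries above the WT median. In saline against WT the difference was 0.10 (95% confidence interval -0.04 to 0.24). ABE against saline lay at the threshold, at 0.16 ± 0.069 (adjusted p = 0.0594), and passed without any 1 of 6 libraries, namely the ABE libraries of replicates 2, 3 and 10 and the saline libraries of replicates 2, 11 and 12 (lowest adjusted p = 0.0173, highest 0.0431), while it was 0.12 (adjusted p = 0.137) without the ABE library of replicate 1.

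*Nqo1*, *Hmox1* and *Gsta4* detoxify quinones, heme and lipid aldehydes, and these 3 genes had different patterns. *Nqo1* (ENSMUSG00000003849.8, chr8:107388225-107403206, minus strand), the quinone reductase often used as the reporter of NRF2, had a lowest, median and highest level of 1.17, 1.38 and 1.63 scaled TPM in WT, 1.29, 1.89 and 2.28 in saline, and 1.22, 1.80 and 2.77 in ABE. In saline 10 of 12 libraries, and in ABE 8 of 12, were above every WT library. *Nqo1* rose in saline against WT by 0.31 ± 0.097 (adjusted p = 0.00843) and in ABE against WT by 0.33 ± 0.097 (adjusted p = 0.00322). ABE differed from saline by 0.02, with a 95% confidence interval of -0.18 to 0.22. *Nqo1* varied against the osteoclast (r = -0.647) and macrophage (r = -0.635) lists. Of 7 tested osteoclast markers, 7 rose in saline and 5 in ABE against WT. Of 11 tested macrophage markers, 2 rose and 2 fell in saline, and 0 rose and 9 fell in ABE. The part of these lists in the rises of *Nqo1* was not tested beyond the fit with the macrophage score.

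*Hmox1* (ENSMUSG00000005413.8, chr8:75093621-75100589, plus strand), the inducible heme oxygenase that breaks heme into biliverdin, iron and carbon monoxide, showed the largest change among the members. Its lowest, median and highest level was 8.36, 16.1 and 24.6 scaled TPM in WT, 9.99, 19.6 and 37.3 in saline, and 2.726, 8.254 and 19.62 in ABE. In ABE 8 of 12 libraries were below every saline library, and 11 of 12 were below the saline median. *Hmox1* fell in ABE against saline by 1.26 ± 0.24 on the log2 scale (adjusted p = 0.000417) and in ABE against WT by 0.98 ± 0.24 (adjusted p = 0.000457). The difference of saline from WT was 0.28, with a wide interval of -0.20 to 0.76. The fall in ABE against saline was found within each sex, at -1.08 ± 0.29 in males and -1.44 ± 0.37 in females, and it was -1.17 without the ABE library of replicate 1.

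*Hmox1* varied over the libraries with genes of macrophages that take up red cells. The genes most like it were *Fcna* (r = 0.956), *Slc40a1* (r = 0.948), which encodes the iron exporter ferroportin, and *Vcam1* (r = 0.914), and its correlation with the macrophage marker list, which holds *Vcam1*, was 0.869. In ABE against saline 10 of the 11 tested macrophage markers fell and none rose, and in ABE against WT 9 fell. The summed level of the list ran from 56.1 to 109 scaled TPM in WT, from 45.4 to 135 in saline and from 26.2 to 91.0 in ABE, and its most abundant gene, the complement gene *C1qb*, had medians of 17.7, 16.9 and 10.2. With the macrophage score as a covariate, the change of *Hmox1* was -0.37 in ABE against saline and -0.002 in ABE against WT, and it did not pass in either, but in ABE against saline only 30 of 15931 genes passed in that fit. In saline against WT, *Hmox1* rose in that fit by 0.37. The part of macrophage RNA in the fall of *Hmox1* was not tested beyond this.

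*Gsta4* (ENSMUSG00000032348.6, chr9:78182774-78209349, plus strand), the glutathione transferase that conjugates hydroxynonenal, a product of lipid peroxidation, was the member that rose in all 3 comparisons. Its lowest, median and highest level was 0.362, 0.861 and 1.26 scaled TPM in WT, 0.780, 1.15 and 1.64 in saline, and 1.12, 1.59 and 2.33 in ABE. All 12 ABE libraries were above the WT median and 9 were above every WT library. *Gsta4* rose in saline against WT by 0.36 ± 0.11 (adjusted p = 0.00686), in ABE against WT by 0.68 ± 0.11 (adjusted p = 1.9e-06) and in ABE against saline by 0.33 ± 0.11 (adjusted p = 0.0154). These fold changes are on the log2(value + 0.5) scale, which understates the change of a gene at this level, and on recovered reads they were 0.55, 1.004 and 0.45. The rise in saline against WT was 0.60 ± 0.14 in males and 0.12 ± 0.15 in females, the latter not past the test. In ABE against saline it was 0.17 ± 0.14 in males, which did not pass, and 0.48 ± 0.15 in females.

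The members that were higher in ABE than in WT varied with skeletal muscle RNA, apart from *Nfe2l2*. Correlation with the score of the skeletal muscle list was 0.740 for *Srxn1*, 0.703 for *Gsta4*, 0.656 for *Keap1*, 0.626 for *Txnrd1* and 0.562 for *Nqo1*, and -0.447 for *Nfe2l2*. The list rose across the groups, with 7 of 10 genes higher in saline against WT, 10 of 10 in ABE against WT and 9 of 10 in ABE against saline. Its summed level ran from 199 to 2952 scaled TPM in WT, from 308 to 7381 in saline and from 1055 to 12660 in ABE, led by the actin gene *Acta1* with medians of 287, 655 and 1748. With the skeletal muscle score as a covariate, *Nfe2l2* was the only member called in ABE against WT, at 0.27. *Txnrd1* was 0.17, *Gsta4* 0.21, *Nqo1* 0.04, *Keap1* -0.01 and *Srxn1* -0.03. Calls were fewer among all genes too in that fit, with 5199 of 15931 called in ABE against WT. In saline against WT, *Nfe2l2* (0.29), *Txnrd1* (0.17) and *Hmox1* (0.60) rose in that fit. The part of muscle RNA in the rises of the other members was not tested further.

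**Figure D3:**
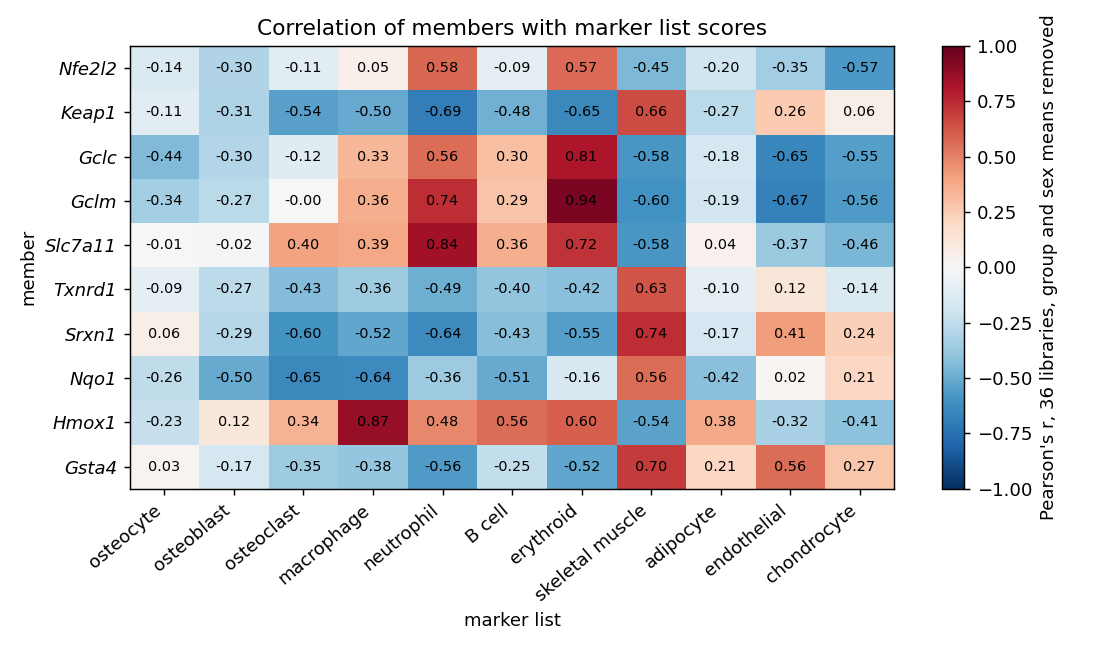
Pearson's r of each member (rows) with the score of each marker list (columns) over 36 libraries after group and sex means were removed, with red for positive and blue for negative values. *Hmox1* is highest with the macrophage list (0.869), *Gclm* and *Gclc* with the erythroid list (0.944 and 0.809), *Slc7a11* with the neutrophil list (0.843) and *Srxn1* and *Gsta4* with the skeletal muscle list (0.740 and 0.703).

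Over the libraries the members formed blocks. *Keap1* correlated with *Txnrd1* at r = 0.824 and with *Srxn1* at 0.713, and *Nqo1* with *Srxn1* at 0.685. *Gclc* and *Gclm* correlated with *Slc7a11* at 0.543 and 0.629, and with *Gsta4* at -0.606 and -0.580. *Nfe2l2* itself correlated with *Slc7a11* at 0.655, *Gclm* at 0.546, *Gclc* at 0.523, *Hmox1* at 0.146, *Nqo1* at 0.051, *Txnrd1* at 0.022, *Srxn1* at -0.199 and *Gsta4* at -0.426, and genes like it in pattern were *Ppp6r3* (r = 0.808) and *Nup98* (r = 0.801). Those like *Gsta4* were *Gstm2* (r = 0.826), another glutathione transferase, and *Cdkn1c* (r = 0.824). For *Srxn1* they were *Ppp1r27*, *Dusp3* and *Prnp* (r = 0.851 to 0.879), for *Txnrd1* *Ddx1*, *Ipo5* and *Etf1* (0.881 to 0.886), for *Nqo1* *Tmod1*, *Psmd1* and *Tspan8* (0.861 to 0.865), and for *Slc7a11* *Mcmbp*, *Ccr1* and *Pak2* (0.874 to 0.905).

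Whether males and females responded differently was tested by an interaction of group and sex. None of the 9 tested members passed, and the background was low, with 1.54% of all genes called for saline against WT, 3.80% for ABE against WT and 0.0565% for ABE against saline. At an unadjusted p under 0.05, limma gave 1 of 9 members for saline against WT (*Gsta4*, 0.48 larger in males, interval 0.06 to 0.91), 2 for ABE against WT (*Nfe2l2* and *Txnrd1*, -0.20 and -0.22) and 2 for ABE against saline (*Gclc* and *Nqo1*, 0.48 and -0.40). *Slc7a11*, tested on reads, had differences of -1.23 (adjusted p = 0.0531), -0.87 (0.205) and 0.36 (0.634) in these comparisons, none of which passed. Of the 5 members called in ABE against saline, *Hmox1* alone passed in males, and *Hmox1*, *Gclc*, *Gclm* and *Gsta4* passed in females. Of all 15931 genes, 3270 passed in males and 4845 in females, so fewer calls in males were not particular to the members. With each library weighted by its quality, 2 members passed for ABE against WT and 1 for ABE against saline. The share of all genes that passed was not counted in that fit, so these counts have no background.

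Other genes of the same pathways were taken from a list of 94 genes in 9 roles, of which 78 were tested. In saline against WT, 40 rose and 9 fell, with a median log2 fold change of 0.26. In ABE against WT, 41 rose and 26 fell, with a median of 0.19, and in ABE against saline 18 rose and 28 fell, with a median of -0.02. The same shares of all genes apply here as for the members. More genes of the list rose than fell in both *LMNA* G/G groups against WT, except with TPM as deposited. There the median gene itself was lower, and 6 rose and 8 fell in saline and 10 rose and 37 fell in ABE. Of all 15931 genes with TPM as deposited, 1032 rose and 3606 fell in saline, and 1484 rose and 9294 fell in ABE. Scaled to the sum over all but very short genes, the counts were 23 and 14 in saline and 31 and 30 in ABE. Of all 15931 genes on that scale, 1865 rose and 6685 fell in saline, and 3580 rose and 7752 fell in ABE.

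**Figure D4:**
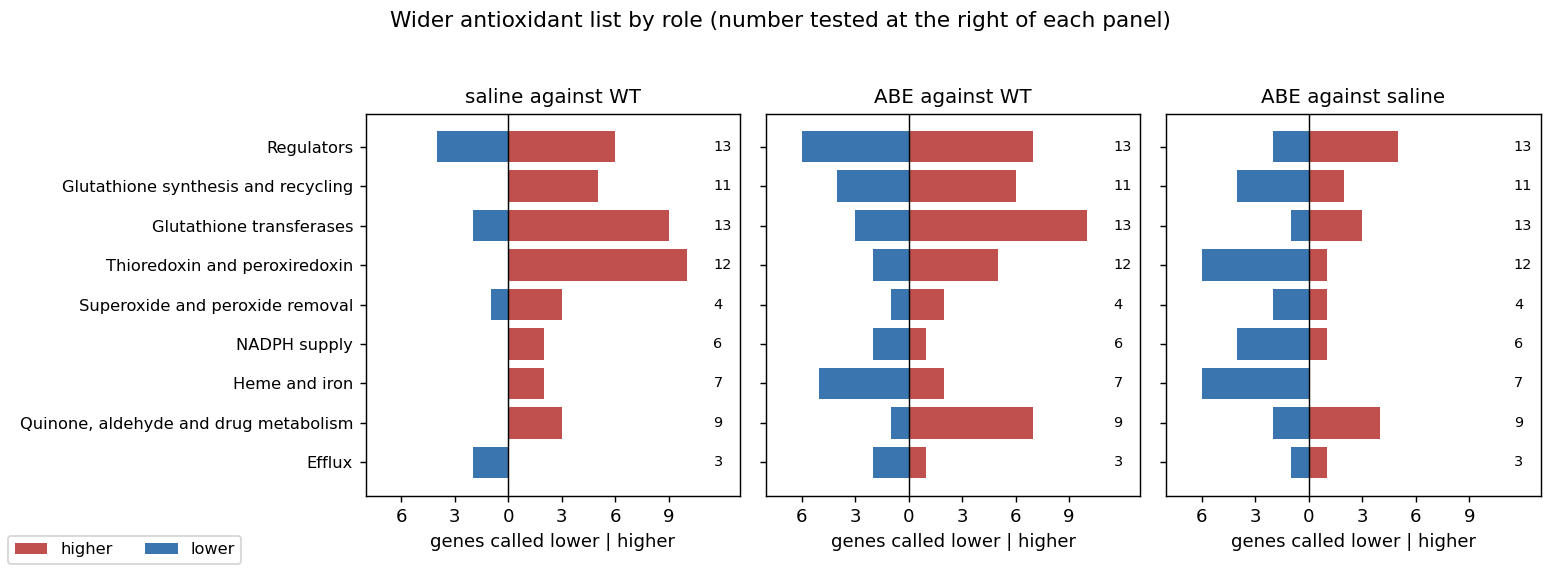
Number of genes called higher (red, to the right) and lower (blue, to the left) in each role of the wider antioxidant list (rows), with the number tested at the right of each panel. The heme and iron role has 6 of 7 tested genes lower in ABE against saline, and the thioredoxin and peroxiredoxin role has 10 of 12 higher in saline against WT.

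Among the regulators, 6 of 13 rose and 4 fell in saline against WT, and 7 rose and 6 fell in ABE against WT. *Nfe2l1*, the sister factor of NRF2 that controls proteasome genes, had medians of 9.94, 14.7 and 27.7 scaled TPM in WT, saline and ABE. It rose by 0.68 ± 0.21 in saline against WT (adjusted p = 0.00598), by 1.39 ± 0.21 in ABE against WT (adjusted p = 5.13e-07) and by 0.71 ± 0.21 in ABE against saline (adjusted p = 0.00607). *Sqstm1*, the autophagy receptor that competes for KEAP1, had the highest mean of the regulators over all libraries and medians of 12.4, 18.5 and 25.2, and it rose in saline (0.60) and in ABE (0.87) against WT. *Bach2*, a repressor at antioxidant response elements, fell in saline by 0.87 ± 0.17 and in ABE by 0.68 ± 0.17 against WT, and *Mafg*, a small MAF partner of NRF2, fell by 0.42 ± 0.059 and 0.37 ± 0.059. The B cell marker list was lower as well, with 6 of 8 genes lower in saline and 7 of 8 in ABE against WT, and its part in the fall of *Bach2* was not tested. For the last 2 genes ABE differed from saline by 0.19 and 0.05, which did not pass.

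Of the glutathione synthesis and recycling genes, 5 of 11 rose and none fell in saline against WT, while 2 rose and 4 fell in ABE against saline. The endoplasmic reticulum peroxidase gene *Gpx8* had medians of 2.15, 4.43 and 4.75 scaled TPM in WT, saline and ABE and rose by 0.87 ± 0.11 in saline against WT (adjusted p = 9.97e-08). The secreted peroxidase gene *Gpx3* rose by 0.70 ± 0.18 in saline and by 1.06 ± 0.18 in ABE against WT. *Chac1*, which degrades glutathione, rose by 0.73 ± 0.24 in ABE against saline (adjusted p = 0.0153). The falls in ABE against saline were led by *Gpx1*, the cytosolic peroxidase gene and the most abundant of the role, with medians of 122, 151 and 85.2 scaled TPM and a fall of 0.92 ± 0.21 (adjusted p = 0.00142), and by glutathione reductase *Gsr*, with medians of 22.3, 25.4 and 17.2 and a fall of 0.66 ± 0.14 (adjusted p = 0.000897).

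Among the glutathione transferases, 9 of 13 rose in saline against WT and 10 of 13 in ABE against WT, with medians over the role of 0.41 and 0.69 on the log2 scale. *Mgst3*, the most abundant, had medians of 10.7, 18.1 and 18.0 scaled TPM and rose by 0.63 ± 0.13 in saline against WT. *Gstp2* rose by 1.48 ± 0.24 in ABE against WT (adjusted p = 2.71e-06) and by 0.81 ± 0.24 in ABE against saline, but it is a near copy of *Gstp1* and reads may be split between the pair. *Gstm2*, the gene most like *Gsta4*, was 0.66 and 0.98 higher in saline and ABE than in WT, and both differences passed. The skeletal muscle list rose in the same comparisons, as given above. With its score as a covariate 21 genes of the whole wider list were called in ABE against WT, where 5199 of all 15931 genes were called. The part of muscle RNA in the rise of the transferases was not tested further.

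Among the thioredoxin and peroxiredoxin genes, 10 of 12 rose in saline against WT and none fell, whereas 6 fell and 1 rose in ABE against saline. *Txnip*, an inhibitor of thioredoxin with the highest mean of the role over all libraries, had medians of 24.0, 35.2 and 29.6 scaled TPM, rose by 0.48 ± 0.085 in saline against WT (adjusted p = 1.87e-05) and fell by 0.23 ± 0.085 in ABE against saline (adjusted p = 0.0269). *Prdx2*, a peroxiredoxin abundant in red cells, fell by 0.70 ± 0.16 in ABE against saline (adjusted p = 0.00146), and the mitochondrial reductase *Txnrd2* fell by 0.73 ± 0.12 in ABE against WT (adjusted p = 3.39e-06), opposite to its cytosolic relative *Txnrd1*.

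For the removal of superoxide and peroxide, mitochondrial superoxide dismutase *Sod2* had medians of 1.37, 2.03 and 4.15 scaled TPM and rose by 0.42 ± 0.17 in saline against WT and by 0.76 ± 0.17 in ABE against saline (adjusted p = 0.044 and 0.0014). Catalase, *Cat*, had medians of 11.4, 15.9 and 11.8, rose by 0.33 ± 0.10 in saline against WT and fell by 0.34 ± 0.10 in ABE against saline (adjusted p = 0.00768 and 0.00845). Of the 6 genes that supply NADPH, 4 fell in ABE against saline, among them the most abundant, transaldolase *Taldo1*, by 0.55 ± 0.13, and malic enzyme *Me1* rose by 0.81 ± 0.25.

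The heme and iron role was lower in ABE, as *Hmox1* was. Of 7 tested genes, 6 fell and none rose in ABE against saline, and the median change was -0.59. Ferritin light chain *Ftl1*, the most abundant, had medians of 112, 112 and 77.0 scaled TPM in WT, saline and ABE and fell by 0.59 ± 0.11 in ABE against saline (adjusted p = 0.000466). Biliverdin reductase *Blvrb* fell by 0.86 ± 0.21 and ferroportin *Slc40a1* by 0.65 ± 0.15 in the same comparison. Ferritin heavy chain *Fth1* differed from these. It rose by 0.85 ± 0.070 in saline (adjusted p = 1.74e-11) and by 0.59 ± 0.070 in ABE against WT. In ABE against saline it fell by 0.26 ± 0.070 (adjusted p = 0.00391). Its range of 21.9 to 32.7 in WT did not overlap that of saline, 37.0 to 63.6, or that of ABE, 33.7 to 49.2. Such separation was not particular to *Fth1*, since *Cbr1* and *Rbx1* also lay above every WT library in both groups. The share of all genes with separate ranges was not counted. The macrophage and erythroid marker lists fell in ABE against saline as given above. Their part in the changes of this role was not tested beyond the fits with these scores.

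Of the quinone, aldehyde and drug metabolism genes, 3 of 9 rose in saline against WT, and 7 rose and 1 fell in ABE against WT. Microsomal epoxide hydrolase *Ephx1*, the most abundant, had medians of 3.65, 4.62 and 6.46 scaled TPM and rose by 0.42 ± 0.13 in ABE against saline (adjusted p = 0.0118). Of 3 tested efflux pumps, 2 fell in saline and in ABE against WT, and the most abundant, *Abcc4*, fell by 0.37 ± 0.056 and 0.39 ± 0.056.

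The direction of the small rises depended on the scale. With TPM as deposited, the median gene differed by -0.13, -0.42 and -0.27 in saline against WT, ABE against WT and ABE against saline, and *Nfe2l2*, *Keap1*, *Nqo1*, *Txnrd1* and *Srxn1* were then below 0 in ABE against WT, as was *Nfe2l2* when libraries were scaled to the sum over all but very short genes. Relative to the median gene of the same scale, all members called in a comparison kept their direction under TPM as deposited, that sum and quantile normalization. The falls of *Hmox1*, *Gclc* and *Gclm* and the rise of *Gsta4* in ABE against WT were in 1 direction on each of these scales without that step.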

How the data were processed

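According to the study's methods, reads were aligned with STAR to GRCm38 and counted on GENCODE genes with QoRTs. The authors deposited TPM per gene and library, and how TPM were calculated was not described. From the values, TPM are whole reads over gene length less 218 bp, which gave whole reads within 0.001 for 100.0% of values, and very short genes (up to 1 base longer than that) took 84.67% to 96.57% of a library's TPM. Each library was therefore divided by its median ratio to the geometric means of 23632 genes above 0 in every library. The study used DESeq2 with sex as a covariate on counts, which were not used here. Because the unit is TPM, limma 3.58.1 (R 4.3.3, eBayes with trend) was fitted on log2(scaled TPM + 0.5) with sex as a covariate, over all 36 libraries and 15931 genes with a mean of at least 0.5 scaled TPM, with Benjamini-Hochberg adjustment at 0.05. It was tested on simulated data. All columns mapped to mice, and 0 pairs of libraries were duplicates. The labels do not give litters. Replicates were numbered in accession order. Positions of genes were read from GENCODE vM21, an annotation of GRCm38.

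The members and lists were chosen with earlier results of these data known. Named from the wider list were, per comparison, the 4 largest rises and falls among called genes with a mean of at least 2 scaled TPM in a compared group and the most abundant gene of a role; *Gstm2* was added for its likeness to *Gsta4*. Alternatives were a pseudocount of 0.1 or 1, no filter or a filter at 5 scaled TPM, other scalings (TPM as deposited, quantile normalization, the sum over all but very short genes), limma-voom on recovered reads, array weights, no sex covariate, the compared groups or either sex alone, muscle or macrophage scores as covariates, and each library left out. The erythroid covariate and voom over genes with at least 50 reads were added after the data were seen. For likeness of pattern, the 3 genes with the highest Pearson's r were named for each member, and some of these are not reported here.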

Additional observations from a re-analysis of the deposited data

How the results depend on the processing

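Leaving out each of the 36 libraries in turn kept the members called at 4 to 5 in saline against WT, 9 to 9 in ABE against WT and 5 to 7 in ABE against saline, the wider list at 45 to 52, 64 to 69 and 43 to 53, and the sex differences at 0 to 0 in each comparison. All fold changes of the tested members kept their direction and their side of the threshold with a pseudocount of 0.1 or 1, no filter, no sex covariate, the compared groups only and limma-voom. The cause of the changes below was not tested, except where fewer genes or mice entered.

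With a filter at a mean of 5 scaled TPM, which left 2 members and 28 genes of the wider list, 1, 2 and 2 members and 18, 24 and 19 wider genes were called in saline against WT, ABE against WT and ABE against saline. Of all 3939 genes in that fit, 2060, 2624 and 1786 were called. With TPM as deposited, 0 members and 14 wider genes were called in saline against WT, and the log2 fold change was -0.153 for *Keap1* and -0.062 for *Srxn1* there, -0.366 for *Nfe2l2*, -0.275 for *Keap1*, -0.106 for *Nqo1*, -0.188 for *Txnrd1* and -0.21 for *Srxn1* in ABE against WT, and -0.122 for *Keap1*, -0.264 for *Nqo1*, -0.251 for *Txnrd1* and -0.148 for *Srxn1* in ABE against saline. That scale moved the median of all genes as given in the report, and 4638 of all 15931 genes were called in saline against WT. Scaled to the sum over all but very short genes, 2 members were called in saline against WT and 5 in ABE against WT, and *Keap1* (-0.164) and *Srxn1* (-0.072) in the first and *Nfe2l2* (-0.056) in the second were below 0. Of all 15931 genes, 8550 and 11332 were called in the same comparisons. With array weights, 2 members had a called sex difference in ABE against WT and 1 in ABE against saline. The share of all genes with a called sex difference was not counted in this or the other alternative fits.

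With quantile normalization, *Nfe2l2* in ABE against WT was 0.084 and no longer called, and *Srxn1* in ABE against saline was 0.159 and called.

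In males alone, 1 member and 25 wider genes were called in ABE against saline, where 3270 of all 15931 genes were called and *Nqo1* was -0.177. In females alone, 2 members and 19 wider genes were called in saline against WT, where 3328 of all 15931 genes were called. *Keap1* was -0.019 and *Gclm* 0.096 there. With the skeletal muscle score as a covariate, 3, 1 and 1 members were called in saline against WT, ABE against WT and ABE against saline, 21 and 10 wider genes in the last 2 of these, and 1 sex difference in ABE against WT. Of all 15931 genes, 7233, 5199 and 1061 were called in these comparisons. *Keap1* (-0.092), *Gclm* (0.205) and *Srxn1* (-0.036) changed sign in saline against WT, *Keap1* (-0.008) and *Srxn1* (-0.031) in ABE against WT and *Nqo1* (-0.132) in ABE against saline. With the macrophage score, 5 members were called in ABE against WT, 0 members and 0 wider genes in ABE against saline, and 1 sex difference in saline against WT, and *Nqo1* (-0.214) and *Txnrd1* (-0.004) changed sign in ABE against saline. Of all 15931 genes, 8597 were called in ABE against WT and 30 in ABE against saline in that fit. With the erythroid score, 0 members and 6 wider genes were called in ABE against saline, where *Nfe2l2* was 0.005 and *Nqo1* -0.03. There 172 of all 15931 genes were called.

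The counts for ABE against WT and ABE against saline both depend on the same ABE libraries. No paired analysis was possible because the labels give no replicate numbers shared between groups.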
